A study of Mus musculus with 10 samples.

Results

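The genes that hold back cell division, together with the p53 pathway that switches some of them on, were read in the peak lists of AB17 hepatocytes. They were 10 of the 21938 protein-coding genes of the mouse annotation (GENCODE vM21, mm10), chosen by name for their role. The INK4 group held Cdkn2a, Cdkn2b, Cdkn2c and Cdkn2d, the CIP/KIP group Cdkn1a and Cdkn1b, the pocket proteins Rb1 and Rbl1, and the p53 axis Trp53 and its inhibitor Mdm2. Each gene was taken with its body and 20 kb on each side, which came to 0.655 Mb in all, with the overlapping windows of Cdkn2a and Cdkn2b counted once. A peak was placed by its summit, the position where the signal peaks. A summit within 2 kb of the outermost start was assigned to the start, and the rest to the body or to a flank. Distances are given from that start and are positive in the direction of transcription.

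AB17 is a line of primary hepatocytes from the liver of C57BL/6 Arid1a fl/fl mice, in which Cre recombinase deletes the eighth exon of Arid1a. The line was immortalized with SV40 large T antigen and also carried the activated H-Ras V12D, so WT and KO cells alike contained both oncogenes. Infection with the adenovirus Ad-GFP gave the Arid1a fl/fl cells called WT, and infection with Ad-Cre, which expresses Cre recombinase, gave the Arid1a-/- cells called KO. H3K9me3 and H3K27me3 were profiled in both genotypes, and Arid1a, Brg1, Ctcf and Rad21 in WT cells, each as 1 library. With 1 library a group no difference could be set against a spread between replicates, so no p-value is given, and every interval covers counting error only. The knockout could not be checked in these lists, because Arid1a was profiled in WT cells alone. RNA was not part of these lists, and a mark or a factor at a gene is not its expression.

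INK4 proteins block Cdk4 and Cdk6, and p21 and p27, the products of Cdkn1a and Cdkn1b, bind cyclin and Cdk complexes, so that the pocket proteins Rb and p107 stay bound to E2F and hold S phase genes off. The Cdkn2a gene has separate starts for p16Ink4a and for p19Arf, and p19Arf shields p53 from Mdm2, the ubiquitin ligase that p53 itself induces. SV40 large T antigen binds p53 and the pocket proteins and inactivates them. H3K27me3, set by Polycomb complexes, is the mark known for silencing the INK4 locus in young cells, while H3K9me3 is the mark of heterochromatin. Brg1 is the ATPase of the SWI/SNF remodelling complex and Arid1a one of its subunits. Ctcf binds DNA at sites that bound loops, and Rad21 is a subunit of cohesin, the ring that Ctcf halts.

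The DNA beneath the strongest Ctcf summits is shown because 7 of the 8 that reached a −log10 q-value of 20 held the Ctcf core or a close match to it. The −log10 q-value is the significance that peak calling gave a summit. It grows with depth and ranks summits within a list only. The 12 letters of the Ctcf core were searched on both strands, and the capitals mark the core or a match with 1 mismatch, with 9 bases on each side, written 5′ to 3′ along the strand of the match in mm10.
Cdkn2b exon, chr4:89310622-89310651, minus strand: caggccttaCCGGCAGAGGGCgcacgagcg
Cdkn2a, Arf start, chr4:89294725-89294754, plus strand: cagaggcgcCCAGGGGGAGGCgcgcgcggg
Cdkn2c upstream flank, chr4:109676924-109676953, plus strand: agcccttcgCCACCCGGCGGCggccgcagc
Cdkn1a intron, chr17:29095627-29095656, minus strand: tcactgatgCCGGTAGGGGGCgctgtgcac
Trp53 start, chr11:69579481-69579510, plus strand: cctccctggCCTGCAGAGGGCgcataattt
Mdm2 downstream flank, chr10:117677167-117677196, minus strand: tgtcttaaaCCACAAGGGGGCaggattgac
Mdm2 start, chr10:117710639-117710668, plus strand: ctcgagcgaCGAGAAGGCGGCggctcctca
The site in the downstream flank of Mdm2 was the exact match. No match was found within 100 bp of the eighth strong summit, at the Ink4a start. Over the whole Ctcf list a match with at most 1 mismatch lay within 100 bp of 83.3% of the 16434 summits of at least 20, and of 17.2% of positions moved by 2 kb. Among all 63 Ctcf summits of the 10 genes, 10 had an exact match within 100 bp and 20 a match with 1 mismatch. Over all 91355 summits of the Ctcf list, 47.8% had a match with at most 1 mismatch that close.

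A sequence match to the p53 response element was rarer. The consensus was searched by its standard form, a pair of 10-base elements with 0 to 13 bases between them, and it gave 2 matches at the 10 genes, a density of 3.05 per Mb against 2.76 per Mb in the genome. The match at Cdkn1a lay 70 to 39 bp before the start, at chr17:29090906-29090937 on the plus strand, and the capitals mark its paired elements.
Cdkn1a: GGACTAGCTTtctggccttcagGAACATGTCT
Rbl1: AGACATGCTTctgcgtagagGAACTTGCTT
The Rbl1 match lay beyond the end of the gene, 62386 to 62415 bp from the start, at chr2:157142119-157142148 on the minus strand. A match within 2 kb of the start was present at 1.14% of the 21938 coding starts, and among the 10 genes at Cdkn1a. The nearest Brg1 summit to the Cdkn1a match was 1694 bp away and the nearest WT H3K9me3 summit 1240 bp away. These are matches of letters and were not tested as sites of p53.

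The E2F site, TTTCCCGC or TTTGGCGC on either strand, was searched in the RefSeq promoters (GRCm38.p6, 250 bases before and 50 after each start). It was present in 514 of 32851 promoters, which is 1.56%. RefSeq held 12 promoters for 9 of the 10 genes, with no entry for Rb1, and 1 of the 12 had a match, the Arf promoter of Cdkn2a. Its bases upstream of the annotated start are shown because the Ctcf-like core of the list above and the E2F letters lie close together in them, at chr4:89294654-89294869 on the minus strand, with both in capitals.
Cdkn2a Arf promoter: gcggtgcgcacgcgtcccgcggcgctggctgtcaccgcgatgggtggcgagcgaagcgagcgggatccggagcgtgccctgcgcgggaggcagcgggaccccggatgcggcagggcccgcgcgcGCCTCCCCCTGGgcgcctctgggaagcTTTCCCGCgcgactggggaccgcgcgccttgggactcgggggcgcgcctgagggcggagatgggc
The Ctcf-like letters begin 92 bp and the E2F letters 65 bp before the start, and the Ctcf summit itself was called 177 bp before it.

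At the INK4 locus on chromosome 4, where Cdkn2b lies upstream of Cdkn2a, the windows of both genes were empty of H3K27me3, with 0 WT and 0 KO summits. The nearest H3K27me3 summit to the Arf start was 265563 bp away in WT and 277591 bp away in KO cells. The locus carried the densest run of Arid1a summits seen at the 10 genes, with Brg1 among them. Cdkn2a had 15 Arid1a and 13 Brg1 summits in its window, and Cdkn2b had 12 and 11, all of them also in the Cdkn2a window. Per 100 kb these were 24.9 Arid1a summits at Cdkn2a and 26.8 at Cdkn2b, above 99.1% and 99.4% of coding genes. Most of them lay in the 16.4 kb between the Arf and Cdkn2b starts, which held 11 Arid1a and 9 Brg1 summits. Their −log10 q-values ran from 2.13 to 4.34 for Arid1a and from 1.74 to 5.20 for Brg1, around whole-list medians of 2.70 and 2.56. The 1 Mb around Cdkn2a held 7.5 Arid1a and 9.6 Brg1 summits per 100 kb, so the density of Arid1a was higher in the gene windows than around them.

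**Figure D1:**
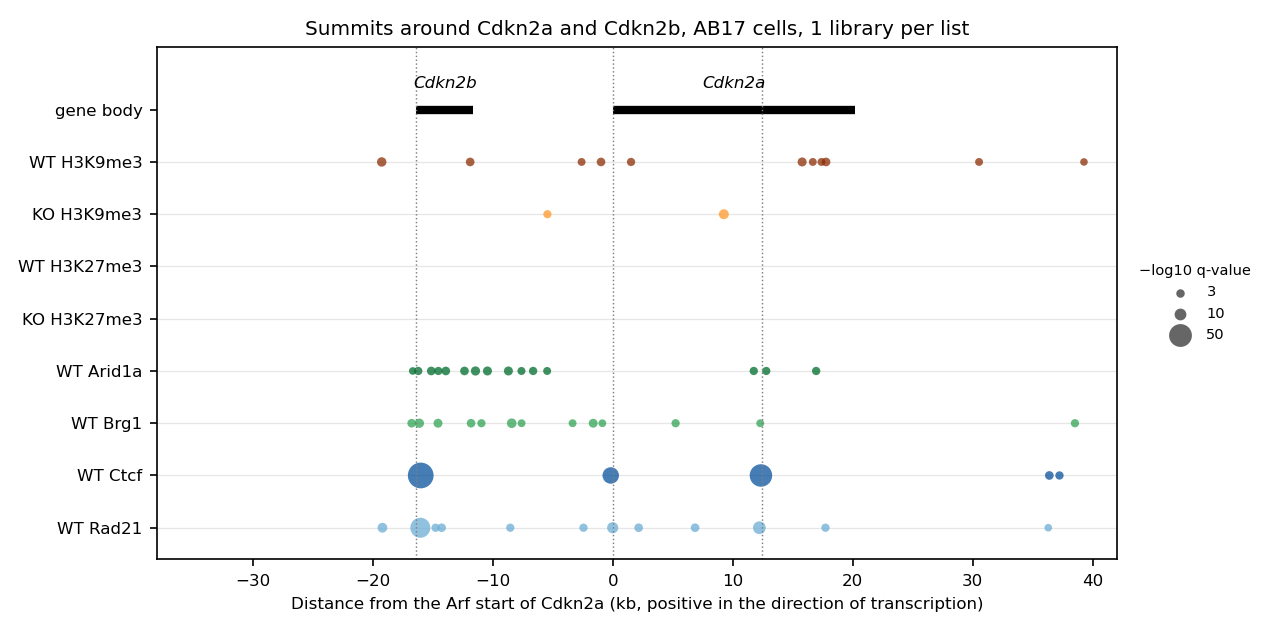
Summits of the 8 peak lists around Cdkn2a and Cdkn2b, 1 row a list, by distance from the Arf start in kb, with the area of a point growing with its −log10 q-value. Dotted lines mark the Cdkn2b, Arf and Ink4a starts, each of which has a Ctcf summit with Rad21 beside it, and the H3K27me3 rows are empty in both genotypes.

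All 3 starts of the INK4 locus carried a strong Ctcf summit with Rad21 beside it. At the Cdkn2b start the Ctcf summit reached 64.9, 367 bp into the gene, and the Rad21 summit 37.4, 33 bp away. At the Ink4a start the Ctcf summit reached 48.4 and lay 114 bp upstream, with a Rad21 summit of 12.5. At the Arf start, which makes p19Arf, Ctcf reached 23.9 at 177 bp upstream and Rad21 8.65 at 13 bp upstream. For both factors Cdkn2b had the strongest summit of the locus. A Ctcf summit of at least 20 at the outermost start was found at 11.8% of all coding genes and at 4 of the 10, which were Cdkn2a, Cdkn2b, Trp53 and Mdm2. All 5 Ctcf summits in the Cdkn2a window had a Rad21 summit within 1 kb, against 55.7% in the whole Ctcf list. Of its 12 Rad21 summits 4 had a Ctcf summit that close, against 52.0% in the whole Rad21 list. Brg1 was also near Rad21 there, with 9 of 13 Brg1 summits within 1 kb of one, against 27.4% in the whole list and 41.1% over the 10 genes.

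H3K9me3 at the INK4 locus was sparser in the KO list. Cdkn2a had 11 WT summits and 2 KO summits, a KO to WT ratio of 0.182 (95% counting interval 0.0196 to 0.833). The 11 WT summits included 2 at the Arf start, 986 bp before it and 1516 bp after it. The strongest WT summit was 4.79, in the upstream flank beyond Cdkn2b, and the stronger KO summit was 5.95, 9252 bp into the gene between the Arf and Ink4a starts. No WT summit at Cdkn2a lay within 1 kb of a KO summit. Cdkn2b had 5 WT summits and 1 KO summit, with an interval of 0.00423 to 1.79 around the ratio of 0.2. All of these were also among the summits of the Cdkn2a window.

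Cdkn2c, which encodes p18Ink4c, counted 9 summits of H3K9me3 in WT and 6 in KO cells, while H3K27me3 was listed at 0 in both. A WT summit of 2.63 lay 951 bp after its start and no KO summit did. Its start had Ctcf of 18.4 at 1483 bp upstream, Rad21 of 4.72 and Arid1a of 3.33, but no Brg1 summit within 2 kb. The strongest Brg1 summit of its window, 7.33, was 12955 bp from the start in the downstream flank. The Ctcf summit of 20.6 in its upstream flank lay 406 bp from the start of Faf1, a neighbouring gene, and was therefore nearer to that gene than to Cdkn2c.

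Cdkn2d, which encodes p19Ink4d, had 9 WT and 2 KO H3K9me3 summits, a ratio of 0.222 (0.0234 to 1.07). None was at its start or in its body. The 9 WT summits were spread over 7 in the upstream and 2 in the downstream flank, with the strongest, 6.29, in an exon of Kri1. The 1 Mb around Cdkn2d held 15.9 WT and 2.90 KO summits per 100 kb, so the lower KO count extended over the neighbourhood. The start had Ctcf of 10.4 at 249 bp upstream and Brg1 of 3.35, with no Arid1a or Rad21 summit within 2 kb. Cdkn2d had 1 H3K27me3 summit, of 2.96, in WT, 13315 bp upstream.

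Cdkn1a, which encodes p21, differed from the other genes in its H3K9me3. It had 15 WT and 11 KO summits, and 12 of the 15 WT summits had a KO summit within 1 kb, against 12 of 73 at the other genes together. All 11 KO summits had a WT summit that close. The downstream flank held 7 summits in each genotype in a string from 10.3 to 17.9 kb. There the KO summits reached 12.3 at 12049 bp and 11.2 at 16692 bp, and the WT summits reached 5.86 at 12020 bp and 6.75 at 16709 bp. Those KO values are the highest of the KO H3K9me3 list at the 10 genes, and as depths are unknown they cannot be compared in size with the WT values. The gene body held 0 summits in both genotypes. Upstream, the KO summit nearest to the start was 7082 bp away, while WT had summits at 4045 bp (3.31) and 1295 bp (2.03). The WT density of 30.1 summits per 100 kb and the KO density of 22.1 were above 98.8% and 98.5% of coding genes.

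The factors at Cdkn1a gathered at its downstream start, 2793 bp from the outermost one. Brg1 reached 9.65 there, the highest Brg1 value of the 10 genes, 188 bp after that start, and Arid1a 2.51 at 159 bp. Ctcf of 88.1 and Rad21 of 32.5 lay 7 bp apart in the intron, 4673 and 4666 bp from the outermost start. At the outermost start Brg1 was 2.24, and Ctcf, Rad21 and Arid1a had no summit within 2 kb. The upstream start also had the only H3K27me3 summit at a start of these genes, a WT summit of 1.78 at 1556 bp upstream with no KO summit within 2 kb. The other H3K27me3 summits at Cdkn1a, 1 in WT and 2 in KO, were 24129 to 28164 bp from the start inside Rab44.

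**Figure D2:**
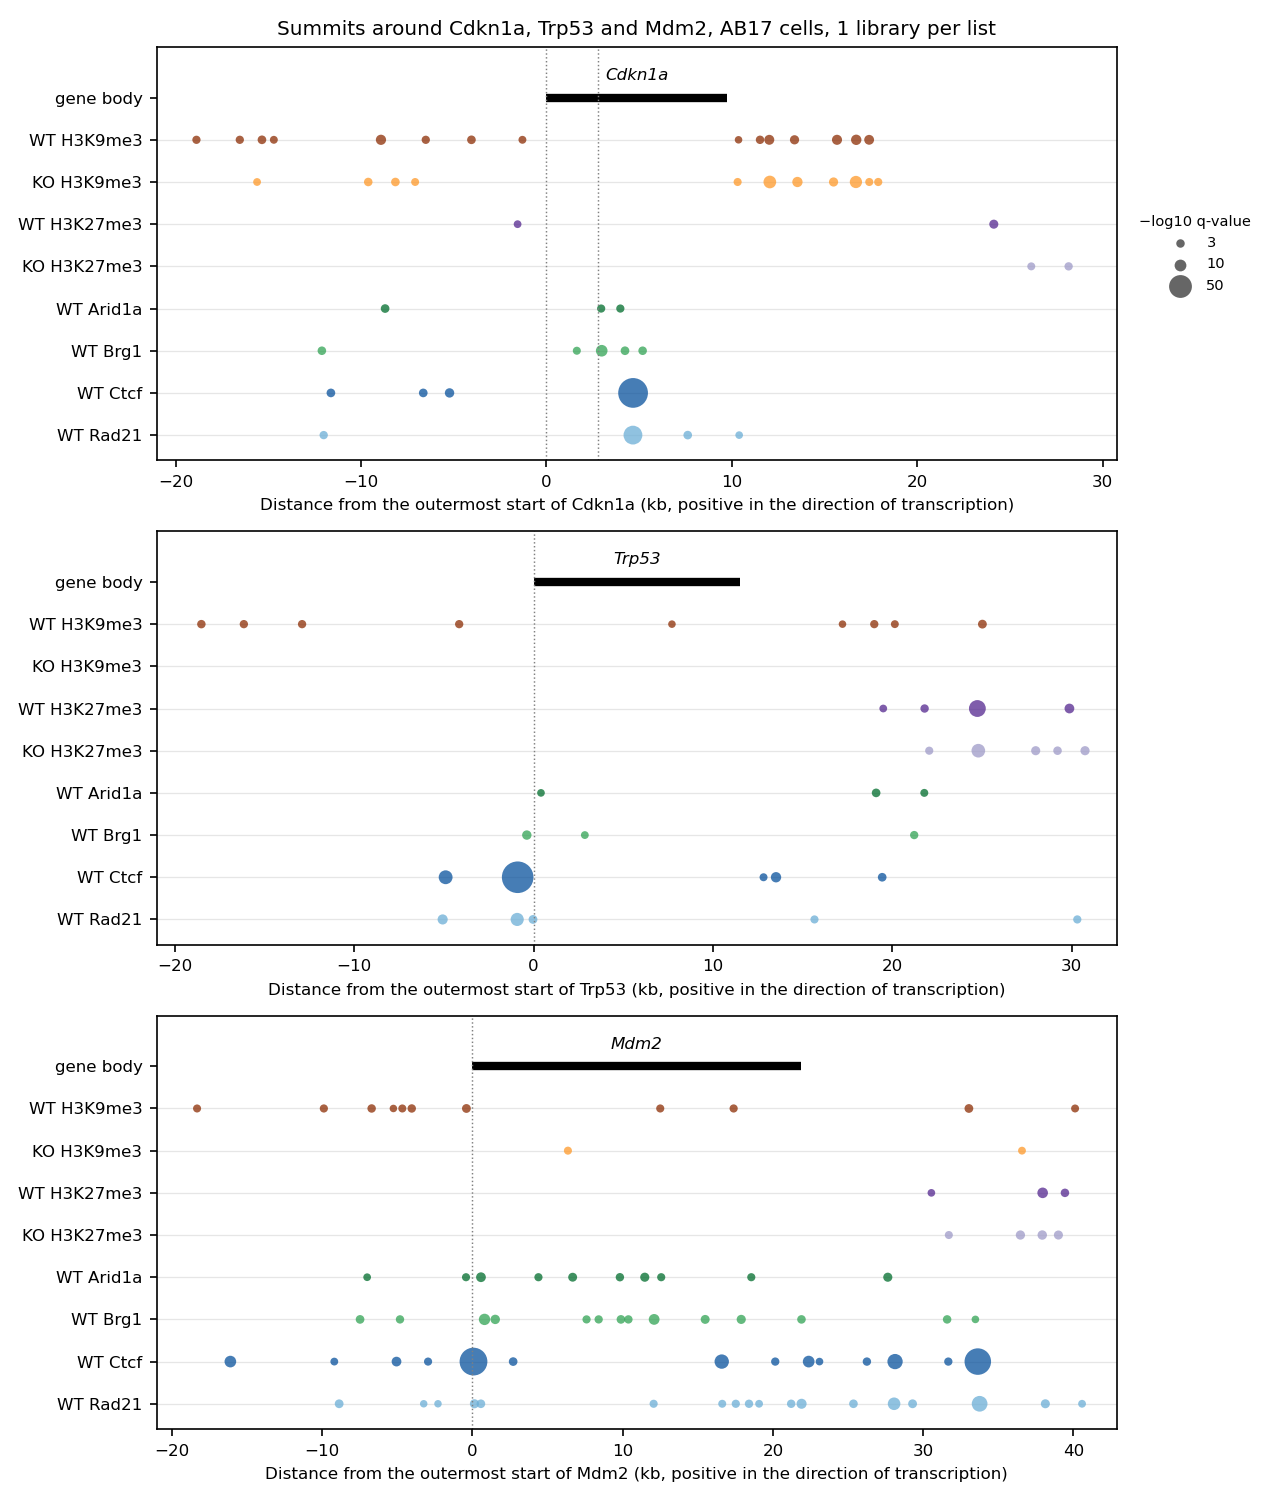
Summits of the 8 peak lists around Cdkn1a, Trp53 and Mdm2 by distance from the outermost start in kb, with the area of a point growing with its −log10 q-value up to 100 and dotted lines at the starts. The downstream string of H3K9me3 at Cdkn1a is present in both genotypes, Trp53 has no KO H3K9me3 summit, and H3K27me3 at Trp53 and Mdm2 lies in the downstream flank in both genotypes.

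Cdkn1b, which encodes p27, was near even in H3K9me3, with 7 summits in WT against 6 in KO cells, and H3K27me3 was again listed at 0. Of the 7 WT summits 2 were at the start, of 3.26 at 480 bp upstream and 2.71 at 823 bp downstream, and no KO summit was. All 4 factors met at the start, with Brg1 of 5.38 at 285 bp, Arid1a of 2.38 at 90 bp, Ctcf of 4.94 at 61 bp and Rad21 of 2.72 at 91 bp upstream. The strongest Arid1a summit of the 10 genes, 6.92, was 8092 bp from its start in the downstream flank. Cdkn1b had the highest Brg1 density of the 10, 26.6 summits per 100 kb, above 98.8% of coding genes. It is also the gene with no other protein-coding gene in its window.

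Among the pocket proteins, Rb1 had few summits and Rbl1 carried all 4 factors at its start. Rb1 lies on chromosome 14 in a window of 182.2 kb with few summits of any factor, and its outermost start had no summit of any of the 8 lists within 2 kb. The window held 1 Arid1a, 2 Brg1, 3 Rad21 and 8 Ctcf summits, all but 1 Brg1 summit in the body, with Ctcf highest at 12.5. Brg1 came to 1.10 summits per 100 kb at Rb1, against 0.495 on chromosome 14 as a whole and 0.7 in the 1 Mb around. The sparse occupancy of Rb1 was thus shared with its surroundings. H3K9me3 had 4 WT and 4 KO summits, all in the body, with 6 of the 8 in the last part of the gene that overlaps Rcbtb2, and H3K27me3 had 0 in both.

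Rbl1 encodes p107. At its start Brg1 of 5.20, Arid1a of 4.70 and a WT H3K9me3 summit of 4.79 lay 279 to 450 bp upstream, and Ctcf of 13.5 and Rad21 of 5.69 lay 480 and 392 bp into the gene. The Brg1 maximum of its window, 8.40, was at the other end of the window, 69128 bp from the start, in the downstream flank near Samhd1. Rbl1 had 13 WT and 8 KO H3K9me3 summits, and 5 of the 13 had a KO summit within 1 kb. The strongest, 6.10 in WT at 4065 bp and 5.02 in KO at 4455 bp upstream, lay 390 bp apart. Another KO summit, of 4.53, lay 2263 bp upstream, just outside the start window. Rbl1 had the largest difference between genotypes in the count of H3K27me3, with 6 WT summits and 1 KO summit (ratio 0.167, 0.00362 to 1.37). All 7 lay in the upstream flank, 12014 to 18972 bp before the start in an intron of Mroh8, and the WT values were at most 4.48.

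The Trp53 start carried the strongest Ctcf summit of the 10 genes. It reached 129 at 889 bp upstream, in an intron of Wrap53, the gene that is transcribed away from the same promoter region, and 785 bp from the Wrap53 start. Rad21 reached 13.5 at 26 bp from it, Brg1 4.71 at 379 bp upstream and Arid1a 1.62 at 411 bp into the gene. Its window held 3 Brg1 and 3 Arid1a summits, where the median coding gene had 3 and 2. H3K9me3 had 9 summits in WT and 0 in KO cells, so that with a floor of 3 summits the KO count was at least 3-fold lower. The WT values were at most 3.63. The nearest KO summit to the start was 32241 bp away, and the 1 Mb around held 16.7 WT and 3.80 KO summits per 100 kb. H3K27me3 had 4 WT and 5 KO summits, all in the downstream flank at Atp1b2. The pair at 24750 bp (25.2 in WT) and 24803 bp (15.0 in KO), 53 bp apart, lay 833 and 780 bp from the Atp1b2 start. Each was the strongest H3K27me3 summit of its own list at the 10 genes.

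Mdm2 had the most Rad21 and Brg1 summits of the 10 genes, 18 and 14 in its window, beside 14 of Ctcf and 10 of Arid1a. Rad21 at 29.1 and Ctcf at 22.6 summits per 100 kb were above 98.2% and 96.03% of coding genes. Its start had Ctcf of 76.3 at 66 bp, Brg1 of 8.997 at 801 bp and Arid1a of 5.44 at 564 bp. Rad21 reached 4.18 there, at 130 bp, and was highest at 21.3 in the downstream flank beside Ctcf of 69.0, within Cpm. H3K9me3 had 11 WT and 2 KO summits (ratio 0.182, 0.0196 to 0.833), with a WT summit of 3.62 at 405 bp upstream of the start and 26 bp from an Arid1a summit. H3K27me3 had 3 WT and 4 KO summits, all in the downstream flank within Cpm, and the strongest of each genotype, 7.23 in WT and 4.79 in KO, were 27 bp apart.

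**Figure D3:**
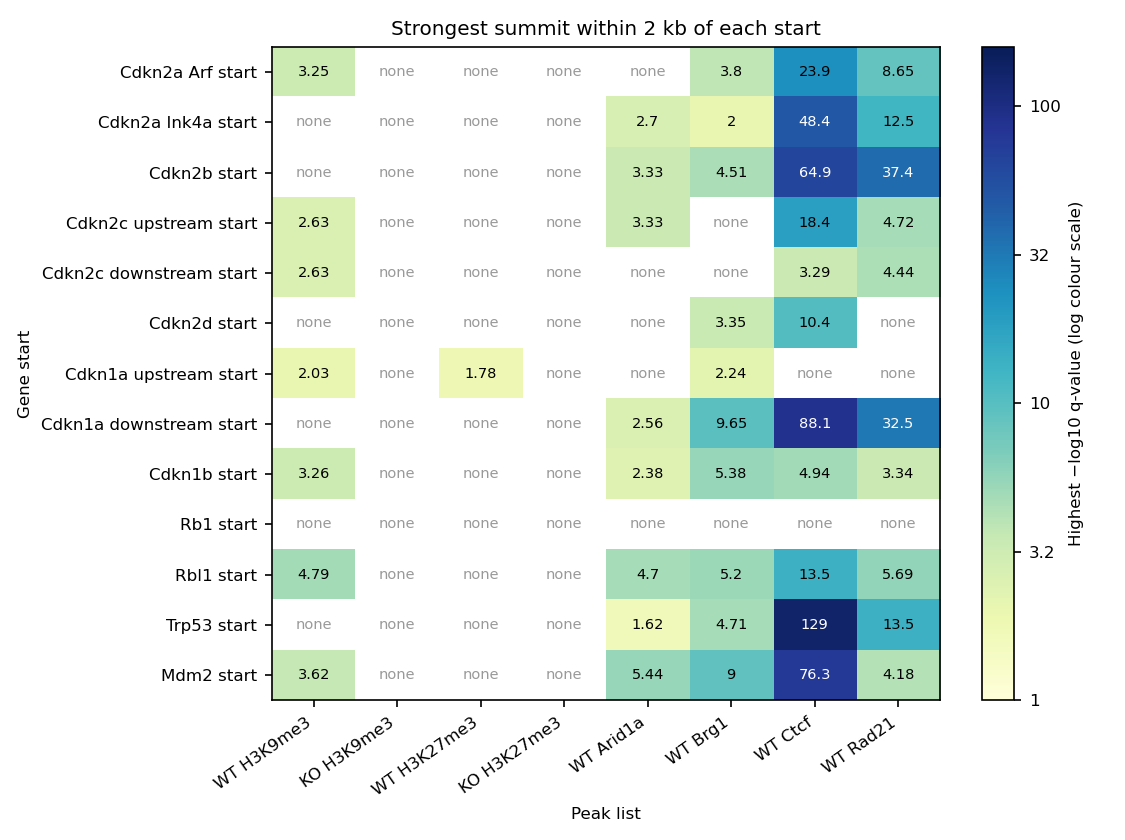
The highest −log10 q-value of a summit within 2 kb of the outermost start of each of the 10 genes, and of a further start of Cdkn2a, Cdkn2c and Cdkn1a, by peak list, with the value in each cell and colour on a log scale. Values compare within a column only; Ctcf runs from 3.29 to 129 where it is present, the KO columns hold no summit, and the row of the outermost Rb1 start is empty.

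Set side by side, the KO lists had no summit of either mark within 2 kb of any of the 10 outermost starts. For H3K9me3, 6 starts had a WT summit and no KO summit, which were Cdkn2a, Cdkn2c, Cdkn1a, Cdkn1b, Rbl1 and Mdm2, against 31.4% of all coding starts. At Rbl1 the nearest KO summit lay 2263 bp upstream, just beyond the 2 kb limit. A WT summit lay at 38.7% and a KO summit at 14% of all coding starts. None of the 10 starts had a KO summit without a WT summit or a summit in both, against 6.69% and 7.3%, and 6 had a summit in either genotype, against 45.4%. None of the 8 WT summits at these starts reached a −log10 q-value of 5. In the windows as a whole, 29.5% of WT H3K9me3 summits had a Brg1 summit within 1 kb, against 14.9% of the whole list. For KO H3K9me3 summits and the WT Brg1 list the shares were 17.1% and 7.26%. The reason was not tested. For H3K27me3, 1 start of 10 had a summit in either genotype, against 26% of all coding starts. It was the WT summit at Cdkn1a, and a summit in WT and not in KO was found at 6.14% of coding starts. A KO summit was at none of the 10, where 19.8% of coding starts had one (17.2% with and 2.58% without a WT summit), and a WT summit was at 23.4% of coding starts.

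Over the windows, H3K9me3 came to 88 summits in WT and 41 in KO cells, a ratio of 0.466 (0.313 to 0.682). The whole lists held 143835 and 134976 summits, a ratio of 0.938. They also cover DNA outside gene windows, so the values over coding genes given next are the nearer comparison. By gene, the H3K9me3 summits of Cdkn2b all lay in the Cdkn2a window too, so the counts of these genes are not separate. The KO count was below the WT count at 9 of the 10 genes, all but Rb1, and at 60% of all coding genes. It was above the WT count at none, against 25.9%, and none of the 10 genes was at 0 in both genotypes, against 6.24%. Where at least 6 summits were present in a genotype a 2-fold difference was called. Of the 8 genes with that many, Cdkn2a, Cdkn2d, Trp53 and Mdm2 were lower in KO, against 52.6% of 11145 coding genes, and none was higher, against 8.16%. The share of 4 in 8 was thus near the background, and the calls numbered 2 with 5 kb flanks and 0 when summits under a −log10 q-value of 3 were left out. The median coding gene had 5 WT and 2 KO summits, and the median of the 10 genes was 9 and 3. Without Cdkn1a the other genes had 73 WT and 30 KO summits, a ratio of 0.411 (0.259 to 0.637). Only a part of the summits had a partner, with 27.3% of WT summits (19.1 to 37.4%) within 1 kb of a KO summit against 31.1% in the whole list, and 56.1% of KO summits (41.04 to 70.1%) within 1 kb of a WT summit against 33.3%. Cdkn1a gave much of this, and without it the shares were 16.4% of WT and 40% of KO summits. Library depth and the antibody's efficiency in each genotype could not be told apart from genotype.

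**Figure D4:**
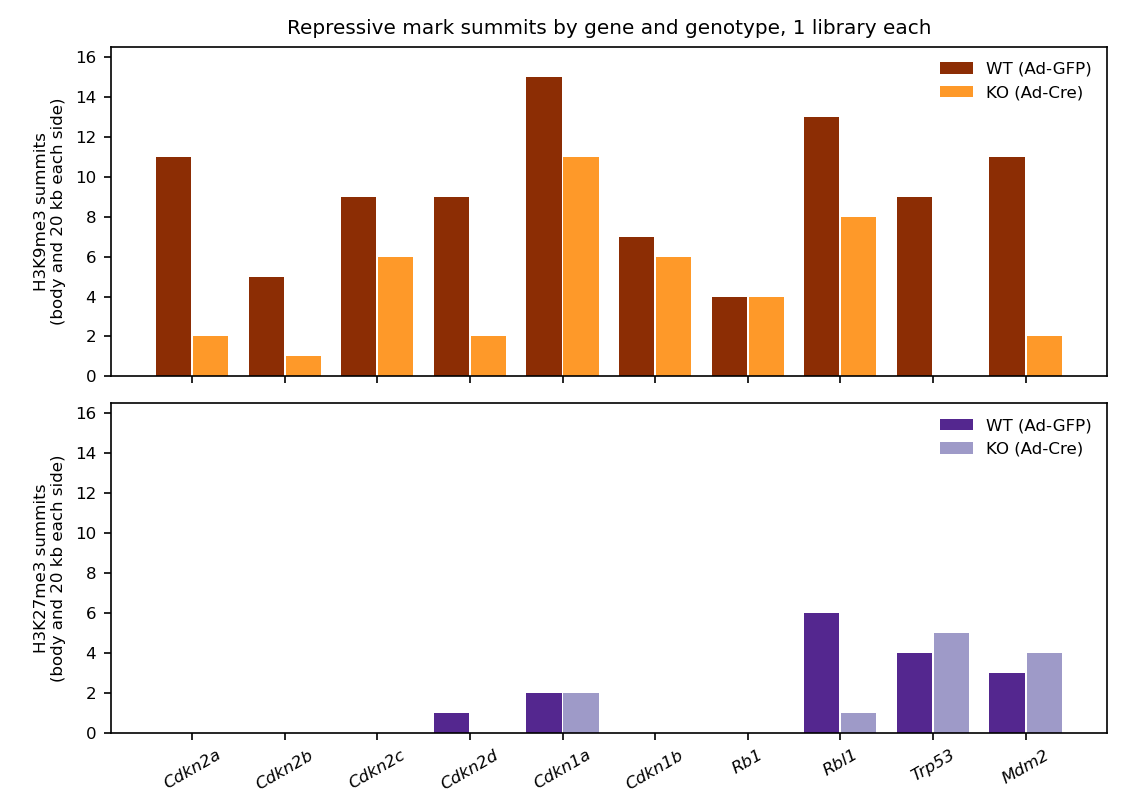
Number of H3K9me3 and H3K27me3 summits in the body and 20 kb flanks of each gene, WT (Ad-GFP) beside KO (Ad-Cre), 1 library each and no error bars. H3K9me3 is lower in KO at every gene except Rb1, which has 4 in both, and H3K27me3 is present at 5 of the 10 genes.

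H3K27me3 came to 16 summits in WT and 12 in KO cells (ratio 0.75, 0.324 to 1.69, against 0.785 for the whole lists). Of the 28 summits in all, 27 lay in flanks and none in the body of any of the 10 genes. Many of those in flanks lay inside neighbouring genes, such as Mroh8, Cpm and Atp1b2. The median of the 10 genes was 1.16 WT summits per 100 kb, near the 1.303 of the median coding gene, and both medians were 0 in KO cells. There were 0 in both genotypes at 5 of the 10 genes, Cdkn2a and Cdkn2b with their overlapping windows, Cdkn2c, Cdkn1b and Rb1, against 44.1% of all coding genes. The KO count was below the WT count at Cdkn2d and Rbl1, and above it at Trp53 and Mdm2, against 37.9% and 11.9% of coding genes. Rbl1 alone had enough summits for a call of a 2-fold difference, which was lower in KO as at 24.4% of coding genes with that many, and 3.2% were higher.

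SWI/SNF and the architectural factors were frequent at these starts. Brg1 was at 8 of the 10 starts, all but Cdkn2c and Rb1, against 39.6% of all coding starts, and Arid1a at 6, against 35.2%. Ctcf was at 8, all but the outermost start of Cdkn1a and Rb1, against 42.5%, and Rad21 at 7, against 50.6%. Ctcf and Rad21 shared 7 starts, against 35.4%, Brg1 and Arid1a shared 5, against 26.5%, and all 4 factors met at Cdkn2b, Cdkn1b, Rbl1, Trp53 and Mdm2, against 16.6% of all coding starts. Of the 73 Brg1 summits in the windows, 41.1% (30.5 to 52.6%) had an Arid1a summit within 1 kb, against 27.5% in the whole list, and of the 51 Arid1a summits 68.6% (54.97 to 79.7%) had a Brg1 summit, against 31.1%. Rad21 stood with Ctcf as often as elsewhere, 51.9% (40.96 to 62.7%) of 77 summits against 52.0%. The median of the 10 genes was 9.5 Brg1 and 8.5 Rad21 summits a window, where the median coding gene had 3 and 5, and for Ctcf it was 5 in both. Coding genes in general include silent genes, and expression was not measured here.

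**Figure D5:**
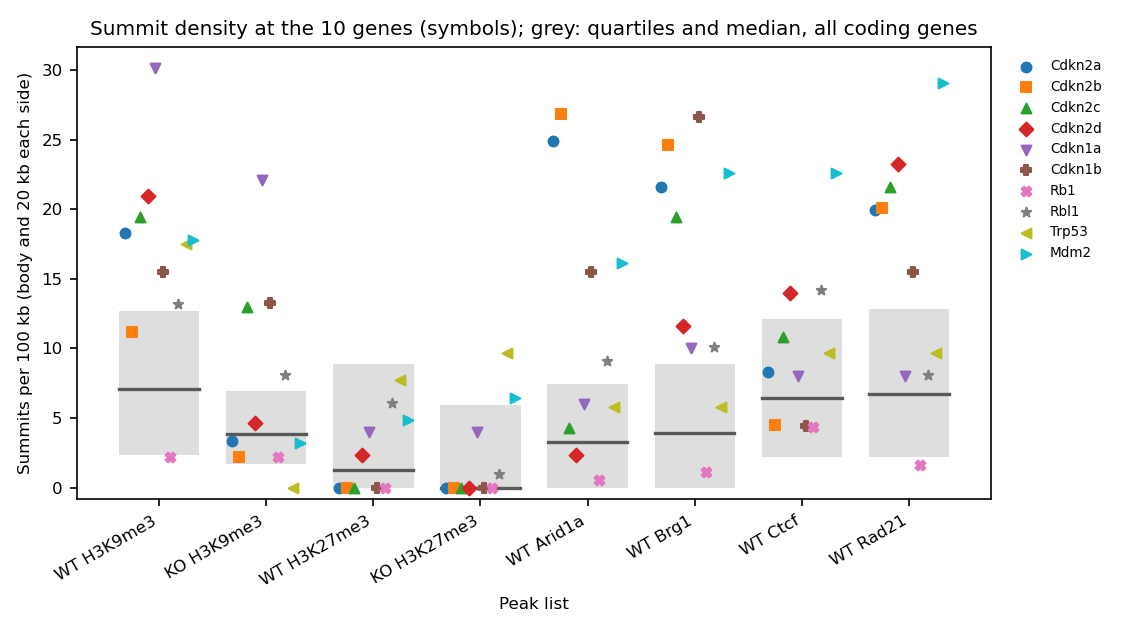
Summits per 100 kb in the body and 20 kb flanks of each of the 10 genes (1 symbol a gene) for each peak list, with grey bars for the middle quartiles and a line for the median of the 21938 coding genes. Cdkn1a is highest for H3K9me3 in both genotypes, Cdkn2a and Cdkn2b for Arid1a, and Rb1 is lowest in the 4 factor lists.

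The rest of the pathway was counted from 3 lists, to be read against all coding starts. Of those, 38.7% had a WT and 14% a KO H3K9me3 summit, 39.6% Brg1, 35.2% Arid1a, 42.5% Ctcf, 50.6% Rad21 and 26% H3K27me3 in either genotype, and of windows that could be called 52.6% were lower in KO in H3K9me3 and 8.16% higher. Of 20 p53 target genes, 12 starts had a WT H3K9me3 summit and 0 a KO summit, 5 of the 7 windows with enough H3K9me3 summits for a call were lower in KO and 0 higher, 14 starts had Brg1, 14 Arid1a, 9 Ctcf and 16 Rad21. H3K27me3 was at 4 of these starts, Pmaip1 and Sesn2 in WT, Bax in KO and Perp in both. The Perp window held 10 H3K27me3 summits in each genotype. Genes of the 3 lists were ranked by the count in the window, which was not divided by window length. By Brg1 the first were Btg2 with 10 summits, Trp53inp1 with 9 and Bbc3, which encodes the death protein Puma, with 8. Sesn1 had most H3K9me3, with 21 WT and 20 KO summits.

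Of 12 p53 and checkpoint regulators, 9 starts had a WT and 3 a KO H3K9me3 summit, 9 had Arid1a and 7 Brg1 (38.7%, 14%, 35.2% and 39.6% of all coding starts). Of 9 windows that could be called 6 were lower in KO and 0 higher, against 52.6% and 8.16%. Trp73, a relative of p53, had the only H3K27me3 at a start, in both genotypes, with 27 WT and 23 KO summits in its window. Its relative Trp63 led by Brg1 with 17 summits, ahead of Mdm4 with 12, and Usp7 led by WT H3K9me3 with 18 against 7 in KO, ahead of Mdm4 with 13. Of 23 cyclin, Cdk and E2F genes, 11 starts had a WT and 1 a KO H3K9me3 summit, 14 had Brg1 and 15 Ctcf, and 6 of 13 windows that could be called, against 52.6%, were lower in KO and 1 higher. H3K27me3 was at 5 of these starts, in both genotypes at Ccnd1, E2f5 and Cdkn1c and in WT at Ccnd2 and Cdk4. Cdkn1c, which encodes p57, the CIP/KIP member outside the 10 genes, had 11 WT and 15 KO H3K27me3 summits in its window, where Cdkn1b had 0. Cdk6, a target of the INK4 proteins, had the most Brg1 summits of this list, with 48, and 26 WT and 16 KO H3K9me3 summits. These counts too were not divided by window length.

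The hepatocyte label was read at 10 marker genes. Brg1 was at 3 of their starts, and among them H3K27me3 was at the start of Hnf4a in both genotypes and of Foxa2 in WT, which are transcription factors of hepatocytes. At 5 fibroblast and stellate markers Brg1 was at 4 starts and H3K27me3 at 1, Des, in both genotypes. At 4 endothelial markers Brg1 was at 1 start and H3K27me3 at 2. At 4 blood markers Brg1 was at 0 starts, and H3K27me3 at 3. These marks do not measure the RNA of the markers.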

How the data were processed

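ChIP-seq peak lists of 8 of the 10 samples were analysed; the 2 inputs served as background in the authors' peak calling and were not used here. According to the study's methods and processing notes, the authors aligned reads to mm10 with Bowtie2, filtered with SAMtools and Picard and called peaks with MACS2 against the corresponding input; versions are not given in the sources used here. The deposited lists hold 1 summit per peak with a −log10 q-value from the authors' MACS2 run, a unit read from the values, none of which was under 1.30 (q-value 0.05). Read depth is unknown from the lists. Narrow peak calling splits a broad mark into several summits.

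Samples were grouped by genotype and antibody from their titles. Per gene (GENCODE vM21), summits of the autosomes, X and Y were counted in Python 3.11.15 with NumPy 2.4.6 and SciPy 1.17.1. Shares have 95% Wilson intervals and ratios exact binomial intervals. A 2-fold call needed 6 summits in a genotype, with a floor of 3. The 2 kb starts, 20 kb flanks and 1 kb partners were varied, as were strength limits, merging and list length. Named summits were the strongest of each list in each gene window and, for marks, the strongest without the other genotype within 1 kb, with neighbours named within 2 kb of such a summit; genes of the pathway lists were named where a start held H3K27me3 or where they were among the first 3 by Brg1 or H3K9me3. Other genes overlapping a summit, the search with 1 mismatch and the Ctcf limit of 20 were added after values were seen. The genes and lists were chosen with earlier results of these data known. Counting was tested on simulated lists.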

Additional observations from a re-analysis of the deposited data

How the results depend on the processing

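No paired analysis was possible because the labels carry no replicate numbers and each group was 1 library. Of 59 alternatives to 11 results, 40 kept their value within its interval or within 1.5 times the count. The H3K9me3 ratio of 0.466 ran from 0.359 with 5 kb flanks to 0.625 among summits reaching 5 in −log10 q-value. The H3K27me3 ratio was 0 with 5 kb flanks (1 WT and 0 KO summits) and turned to 1.09 with equal numbers of summits in both genotypes. With that limit of 5, WT H3K9me3 without KO was at 0 starts, Brg1 at 3 and Rad21 at 4. The start with H3K27me3 was lost (0) with 1 kb around it and at limits of 3 and 5. Genes called lower in H3K9me3 were 2 with 5 kb flanks and 0 at a limit of 3. The share of WT H3K9me3 summits with a KO partner was 15.9% at 500 bp, 40.9% at 3 kb and 38.9% at a limit of 3. For WT H3K27me3 it was 81.2% at 3 kb and 0% with 5 kb flanks. Rad21 with Ctcf was 75.3% at 3 kb, and Brg1 with Arid1a 26.0% at 500 bp, 63.0% at 3 kb and 60% at a limit of 3. The wider or narrower limit sets these shares by construction, and the cause of the other changes was not tested. Leaving out 7 bins of 1 kb with summits in nearly every list removed no summit of either mark at these genes. Neither ratio could therefore change, though both are counted among the 40. Depth is unknown from the lists and limits every count.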

Other observations

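Of the 10 Ctcf summits at these genes with an exact core within 100 bp, 9 had the letters CCAGAAGAGGGC. None of them was at a start, the nearest being 5059 bp away, and their −log10 q-values ran from 2.72 to 17.1. The whole Ctcf list was searched within 50 bp of summits, a narrower limit than the 100 bp used at these genes. There these letters made up 36.9% of 13284 exact cores, 99.8% of them in bases that the reference marks as repeats. Their median −log10 q-value was 5.48 against 14.5 for all exact cores. The tenth exact core, CCACAAGGGGGC, lay beneath the summit of 69.0 downstream of Mdm2. These letters were chosen after their values were seen.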
